A study of Mus musculus with 6 samples.

Results

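The genes described here carry glucose into the cell, break it down to pyruvate and move lactate across the plasma membrane. They are Slc2a1, Hk1, Hk2, Pfkl, Aldoa, Pgk1, Pkm, Ldha, Ldhb and Slc16a1, taken by gene symbol from the deposited count table, in which all 10 were found among 57127 listed genes. The table holds whole-epididymis RNA of adult C57BL/6 mice, with 3 libraries of wild type (WT) and 3 of Ocln-KO mice (genotype Ocln-/-), a constitutive knockout of the tight junction protein occludin. The Ocln-KO males came from heterozygous pairings, and the labels name no treatment of either genotype. The question was how gene expression of the epididymis differs between the genotypes, and for these genes whether transcripts of sugar breakdown and lactate exchange differ. A line of the sample records' extraction protocol speaks of prefrontal cortex, whereas their tissue field gives epididymis. The epididymal secretory transcript Crisp1 ranged from 4435 to 16756 CPM (counts scaled to library size) over the 6 libraries. Of the other secreted principal cell markers followed here, Lcn5 averaged 4924 CPM in WT. Lcn8, Cst8, Rnase10 and Lcn9 averaged only 1.76, 0.511, 0.0667 and 0.0446 CPM in WT, and why these were low was not tested.

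Glycolysis splits glucose into pyruvate in the cytosol and yields ATP without oxygen. Lactate dehydrogenase then interconverts pyruvate and lactate, and monocarboxylate transporters carry lactate and pyruvate across membranes together with a proton. In the epididymis, the duct epithelium supplies the luminal fluid in which sperm mature and are stored, and sperm themselves rely on germ line isoforms of several glycolytic enzymes.

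In Ocln-KO, Hk2, Pkm and Ldha transcripts fell by 31.6%, 23.7% and 25.8% respectively, and no member rose. These 3 of the 10 genes passed a false discovery rate (FDR, the p-value adjusted over all 19691 genes tested) under 0.05 in edgeR's quasi-likelihood test. Among all genes tested, 5.04% were lower in Ocln-KO by that rule and 3.91% were higher. The fitted log2 fold change was below 0 for all 10 members, with a median of -0.32 and a range from -0.56 to -0.11, while 49.1% of all tested genes lay below 0 and their median was 0.0081. None of the members reached the 2-fold change that the study's methods ask of a differentially expressed gene. In 6 of the 10 members every WT library lay above every Ocln-KO library. Over all tested genes 36.3% did not overlap between the genotypes, a share that counts both directions. The calls rest on all 3 WT libraries, since without WT replicate 1, 2 or 3 none of the 10 members passed by edgeR. Over all genes, the share called lower at an FDR under 0.05 was then 0.0935%, 0.714% and 0.197%. In these fits 5, 7 and 5 of the members had an unadjusted p under 0.05. The share of all genes at that unadjusted threshold was not counted, here or below, so such counts have no background. Without Ocln-KO replicate 2 only Hk2 passed, in a fit that called 1.68% of all genes lower. DESeq2 called 5 members, and 8.68% of all genes lower.

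The libraries held between 30646424 and 38870780 counts, so that 1 count equals between 0.0267 and 0.0314 CPM, the usual scaling of counts to library size, here with TMM factors, and the least abundant member, Pgk1, still had 488 counts in its lowest library. Ocln itself had 85.8, 78.7 and 91.7 CPM in WT replicates 1 to 3 and 15.1, 15.3 and 14.9 CPM in Ocln-KO (log2 fold change -2.50, edgeR FDR 0.000108). Ocln-KO replicate 3 stood apart from the other libraries: the summed level of 8 spermatid and sperm markers was 104 CPM there, against 437 and 440 CPM in Ocln-KO replicates 1 and 2 and 320 to 398 CPM in WT. The summed level of 10 macrophage markers was 408 CPM there against 207 and 249 CPM, and that of 6 fibroblast markers 5454 CPM against 1959 and 2713 CPM. In whole tissue, a smaller number of cells of a type and less RNA per cell cannot be told apart.

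**Figure D1:**
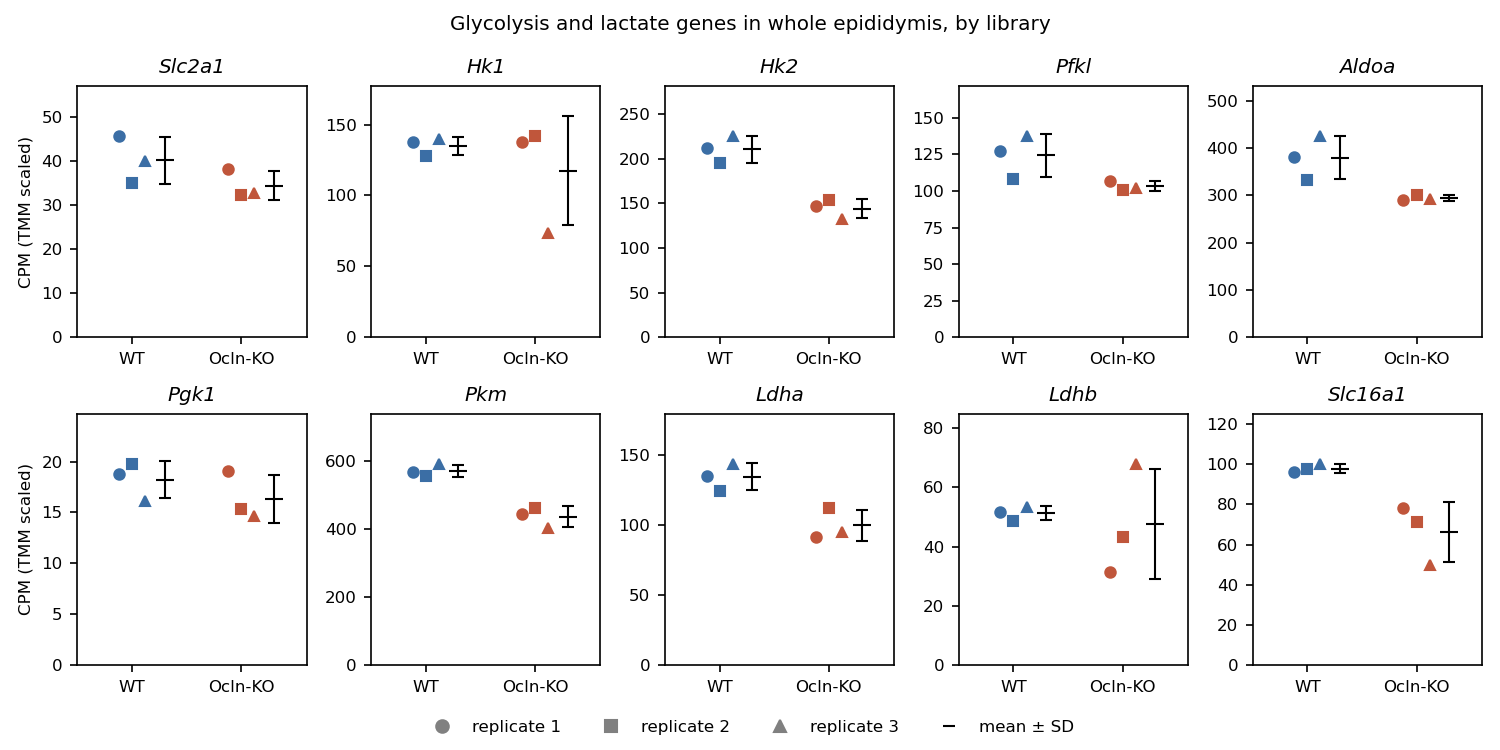
TMM-scaled CPM of the 10 genes in each library, with WT in blue, Ocln-KO in red, a marker shape for each replicate number and the mean ± SD (n = 3) in black. Hk2, Pkm, Ldha, Aldoa, Pfkl and Slc16a1 do not overlap between the genotypes, whereas in Hk1 a single Ocln-KO library is low and in Ldhb the Ocln-KO libraries lie on both sides of WT.

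The stretches just upstream of the transcription starts of the called genes are shown because these genes moved in one direction, with Ldhb as the family member that did not pass the test. The sequences are those of RefSeq (GRCm38.p6), the 250 bases before the annotated start, read 5′ to 3′ on the strand of the gene. Capitals mark ACGTG on either strand, a form of the core letters that hypoxia-inducible factors bind. ACGTG also overlaps the E-box CACGTG, the site of factors such as MYC and USF. The other form of the core, GCGTG, was neither marked nor counted, and the Ldhb stretch holds it.

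Hk2 upstream stretch, minus strand, chr6:82774455-82774704: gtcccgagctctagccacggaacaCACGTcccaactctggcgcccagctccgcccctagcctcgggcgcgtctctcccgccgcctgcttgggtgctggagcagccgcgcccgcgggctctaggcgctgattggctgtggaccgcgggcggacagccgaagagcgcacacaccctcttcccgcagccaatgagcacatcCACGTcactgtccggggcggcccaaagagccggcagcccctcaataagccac
Pkm upstream stretch of the downstream start, plus strand, chr9:59656977-59657226: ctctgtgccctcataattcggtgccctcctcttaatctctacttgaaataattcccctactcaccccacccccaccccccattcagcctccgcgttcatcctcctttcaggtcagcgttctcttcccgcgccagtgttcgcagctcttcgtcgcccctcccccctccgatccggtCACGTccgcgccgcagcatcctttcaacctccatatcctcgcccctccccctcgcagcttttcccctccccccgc
Ldha upstream stretch of the upstream start, plus strand, chr7:46845554-46845803: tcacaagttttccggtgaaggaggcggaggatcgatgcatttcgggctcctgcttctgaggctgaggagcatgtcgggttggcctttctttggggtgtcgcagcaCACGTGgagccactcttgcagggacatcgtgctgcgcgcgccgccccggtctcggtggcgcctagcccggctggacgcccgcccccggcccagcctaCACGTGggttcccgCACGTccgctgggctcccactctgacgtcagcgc
Ldhb upstream stretch, minus strand, chr6:142507958-142508207: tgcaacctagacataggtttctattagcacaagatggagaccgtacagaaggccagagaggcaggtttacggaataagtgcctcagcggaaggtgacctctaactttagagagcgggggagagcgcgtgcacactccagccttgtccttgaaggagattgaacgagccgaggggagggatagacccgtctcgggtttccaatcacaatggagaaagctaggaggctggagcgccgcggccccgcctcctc

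In the Ldha stretch the letters form 3 blocks, which begin 145, 48 and 34 bases before the start, and the first 2 of them are full CACGTG. The Hk2 stretch holds 2 blocks, 226 and 52 bases before the start, the Pkm stretch 1 block, and the Ldhb stretch none. RefSeq gives Pkm and Ldha 2 starts each, and the stretch not printed for either gene holds no ACGTG, so the printed ones were picked for holding it. RefSeq lists 15 starts for the 10 genes, all of which were matched. At least 1 ACGTG lay in 8 of these 15 stretches, belonging to 7 of the genes (Slc2a1, Hk2, Aldoa, Pgk1, Pkm, Ldha and Slc16a1), where 2 of the Aldoa stretches overlap and share the same match. Full CACGTG lay in 2 stretches, of Ldha and Slc16a1, and GGGCGG, the GC box bound by SP1, was also in 8 stretches of 7 genes. Among all 32851 stretches of that length from RefSeq, a share of 16.6% held ACGTG, 6.02% CACGTG and 32.7% GGGCGG, both strands counted. A match describes letters only, and it was also found for Slc2a1, Aldoa, Pgk1 and Slc16a1, none of which passed by edgeR.

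Glucose uptake and its trapping by phosphorylation are the first steps. Slc2a1 (chromosome 4, 119108711 to 119137983, GRCm38), which encodes the glucose transporter GLUT1, had 45.6, 34.9 and 39.9 CPM in the WT libraries against 38.2, 32.2 and 32.7 CPM in Ocln-KO. The genotypes overlapped, and the log2 fold change of -0.22 had a 95% interval from -0.51 to 0.06 (edgeR FDR 0.273).

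Hk2 (chromosome 6, 82725025 to 82774454) encodes hexokinase 2, a hexokinase that binds mitochondria and is abundant in insulin-responsive and growing cells. It had 212, 195 and 225 CPM in the WT libraries against 147, 153 and 132 CPM in Ocln-KO. The 3 Ocln-KO libraries lay close together and below each WT library. The log2 fold change was -0.55 (SE 0.10, edgeR FDR 0.0228), the lowest FDR among the members. Hk2 passed under 10 of 14 alternatives and missed the threshold without each WT library and under the replicate block, where the FDR lay between 0.0579 and 0.102.

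Hk1 (chromosome 10, 62268855 to 62379908), the hexokinase gene of most tissues, of which germ cells use their own transcripts, had 138, 128 and 140 CPM in the WT libraries against 137, 142 and 73.4 CPM in Ocln-KO. Ocln-KO replicates 1 and 2 were within or above the WT range, and only Ocln-KO replicate 3 was low. With all libraries the log2 fold change was -0.20 (SE 0.23, edgeR FDR 0.597), and without Ocln-KO replicate 3 it was 0.045 (edgeR FDR 0.803). The low value of Hk1 came in the library in which the sum of the spermatid and sperm markers was also low, and the part of these transcripts in the result was not tested. The count ratio of Hk2 to Hk1 within a library, which does not depend on scaling, was 1.54, 1.52 and 1.61 in WT and 1.07, 1.08 and 1.80 in Ocln-KO. It overlapped between the genotypes (exact two-sided permutation test, p = 0.4, adjusted p = 0.6 over 3 ratios, where 3 against 3 libraries cannot give less than 0.1).

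In the middle of the pathway, Pfkl, Aldoa and Pgk1 encode the liver-type subunit of phosphofructokinase, which commits sugar to glycolysis, aldolase A, which splits fructose bisphosphate, and phosphoglycerate kinase 1, which makes ATP. Pfkl (chromosome 10, 77986947 to 78010083) had 127, 108 and 137 CPM in the WT libraries against 107, 101 and 102 CPM in Ocln-KO. WT replicate 2 was only just above the Ocln-KO libraries, and the log2 fold change of -0.27 (SE 0.10) did not pass (edgeR FDR 0.136). Aldoa (chromosome 7, 126795234 to 126800751) had 381, 333 and 425 CPM in the WT libraries against 291, 300 and 292 CPM in Ocln-KO.

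The Ocln-KO values of Aldoa differed from each other far less than the WT values did, with SDs of 5.36 and 46 CPM. Its log2 fold change was -0.37 (SE 0.11, edgeR FDR 0.0697), and DESeq2 alone among the 14 alternatives put it under the threshold, at an FDR of 0.0284. Pgk1 (chromosome X, 106187100 to 106203699) had 18.8, 19.8 and 16.2 CPM in the WT libraries against 19.1, 15.3 and 14.7 CPM in Ocln-KO. These ranges overlapped, with a log2 fold change of -0.16 (95% interval from -0.50 to 0.18, edgeR FDR 0.518).

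Pkm (chromosome 9, 59656368 to 59679375) encodes pyruvate kinase M, which makes pyruvate in most tissues outside liver and red cells. It had 567, 555 and 590 CPM in the WT libraries against 443, 462 and 402 CPM in Ocln-KO, the highest CPM of the 10 genes. The WT libraries lay close together and above each Ocln-KO library, and the log2 fold change was -0.39 (SE 0.09, edgeR FDR 0.0433). The call is close to the threshold: Pkm passed under 6 of 14 alternatives, and scaled by total counts alone its FDR was 0.0795. The counts are per gene and do not separate the M1 and M2 splice forms.

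Ldha and Ldhb encode the subunits of the lactate dehydrogenase tetramer, of which the A subunit prevails in tissues that make lactate and the B subunit in tissues that use it. Ldha (chromosome 7, 46841475 to 46855627) had 135, 125 and 144 CPM in the WT libraries against 91.8, 112 and 95.3 CPM in Ocln-KO. Ocln-KO replicate 2 was nearest to WT, and the genotypes did not overlap. The log2 fold change was -0.43 (SE 0.11, edgeR FDR 0.0467), under the threshold in 4 of 14 alternatives. With RLE factors, or with TMM factors computed without the 20 most abundant genes, the FDR was 0.0504 and 0.0503.

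Ldhb (chromosome 6, 142490249 to 142507957) had 51.6, 48.8 and 53.5 CPM in the WT libraries against 31.4, 43.3 and 67.9 CPM in Ocln-KO. Ocln-KO replicates 1 and 2 were below all WT libraries and Ocln-KO replicate 3 was above them. The log2 fold change of -0.11 (SE 0.24, edgeR FDR 0.807) became -0.46 without Ocln-KO replicate 3 (edgeR FDR 0.0905) and 0.12 without Ocln-KO replicate 1 (edgeR FDR 0.712). The high Ldhb value fell in the library with the highest sums of macrophage and fibroblast markers, and their part in it was not tested. The paper names Ldhb as a top shortlisted enzyme from its combined transcript and protein data. With DESeq2 the Ldhb transcript was not called here (FDR 0.838), and protein was not examined.

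The ratio of Ldhb to Ldha counts was 0.382, 0.392 and 0.372 in WT and 0.342, 0.385 and 0.713 in Ocln-KO. It was nearly constant over 5 of the 6 libraries, and the difference between genotypes was smaller than the spread among Ocln-KO libraries (exact two-sided permutation test, p = 0.8, adjusted p = 0.8 over 3 ratios). Without Ocln-KO replicate 3 the mean difference on the log2 scale went from 0.25 to -0.072.

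Slc16a1 (chromosome 3, 104638668 to 104658462) encodes the monocarboxylate transporter MCT1, which carries lactate and pyruvate with a proton. It had 95.9, 97.4 and 100.2 CPM in the WT libraries against 78.1, 71.2 and 49.7 CPM in Ocln-KO. The WT libraries differed by little and all lay above Ocln-KO, while Ocln-KO replicate 3 was well below the other two. The log2 fold change of -0.56 (SE 0.16) was the largest of the members in size, yet its edgeR FDR was 0.0642. Without Ocln-KO replicate 3 the change was smaller, -0.39, and passed (edgeR FDR 0.0390), and without Ocln-KO replicate 1 it was -0.69 (edgeR FDR 0.0436). DESeq2 and edgeR with no count filter called it too, at FDRs of 0.0147 and 0.0333.

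**Figure D2:**
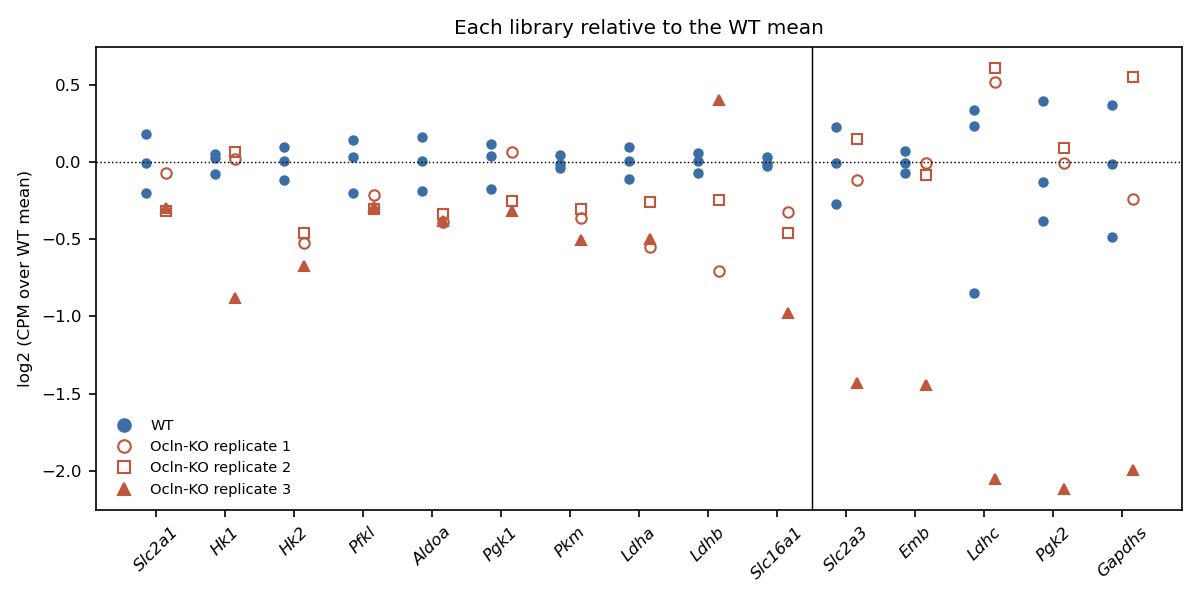
Log2 ratio of each library's CPM to the WT mean, for the 10 genes left of the line and for Slc2a3, Emb and 3 germ line isoforms right of it, with WT as filled blue circles and Ocln-KO as red symbols by replicate. For Hk2, Pkm, Ldha and Aldoa the 3 Ocln-KO libraries lie together below 0, whereas for Hk1, Slc2a3, Emb and the germ line isoforms Ocln-KO replicate 3 is the lowest of the 6 libraries.

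By library, 7, 9 and 9 of the 10 members were below every WT library in Ocln-KO replicates 1, 2 and 3. Over all tested genes, 35.7%, 35.1% and 37.4% were below every WT library in these 3 libraries. The median log2 ratio of the members to their WT means was -0.34, -0.31 and -0.44 in these libraries. Ocln-KO replicate 3 held the lowest Ocln-KO value for 5 members and showed the widest range, from -0.98 for Slc16a1 to 0.40 for Ldhb. Without that library 2 members passed by edgeR, Hk2 and Slc16a1, as they did without Ocln-KO replicate 1. These 2 fits called 4.63% and 4.3% of all genes lower.

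Per kilobase of exon (the union of GENCODE M21 exons), Aldoa and Pkm had the highest levels in WT, with 130 ± 15.8 and 114 ± 3.52 CPM per kilobase (SD, n = 3), and their ranges overlapped. They were followed by Ldha at 40.6 ± 2.91, Hk2 at 35.3 ± 2.55 and Ldhb at 32.7 ± 1.51 CPM per kilobase, of which neighbours in this order overlapped. Slc16a1 at 22.1 ± 0.483 stood alone, Pfkl at 18.6 ± 2.22 and Hk1 at 15.9 ± 0.743 overlapped, and Slc2a1 at 11.4 ± 1.52 and Pgk1 at 8.13 ± 0.828 CPM per kilobase were lowest. With the longest transcript as length the order of the 4 highest was Aldoa, Pkm, Ldha and Ldhb, and Hk1 and Pfkl rose above Slc16a1, which was then eighth.

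These levels carry a limit of short-read counting. Glycolytic genes have left many processed pseudogenes in the mouse genome, and reads that align to several places could have been dropped or divided. GENCODE M21 lists 13 pseudogenes of Ldha, 8 of Pkm, 5 of Aldoa, 4 of Pgk1 and 1 of Ldhb with at least 90% identity over 300 bases, and none by this measure for Slc2a1, Hk1, Hk2, Pfkl or Slc16a1. Copies of at least 95% identity covered 76.8% of the main Ldhb transcript, 68.8% of that of Pgk1, 65.5% of Pkm and 56.6% of Ldha. The pseudogenes themselves received few counts, between 0.057% of the gene's own counts for Aldoa and 2.31% for Ldha. Gapdh, the housekeeping dehydrogenase of the pathway, has 168 such pseudogenes. The 154 of them with a line in the count table held 7992 counts against 2000 for Gapdh, and 1844 of those lay in 3000002C10Rik, a copy of 94.5% identity. Gapdh itself was listed at 11.6, 9.19 and 8.96 CPM in the WT libraries against 8.04, 10.4 and 9.70 CPM in Ocln-KO (log2 fold change -0.078, edgeR FDR 0.808). Whether its level reflects reads lost to copies was not tested. A gene named Gm49759 also overlaps 15.3% of the Pkm exons on the same strand.

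Around these genes, 64 others of hexose uptake, glycolysis, its control, pyruvate entry into mitochondria and lactate handling were followed, of which 53 were abundant enough to be tested. Over all tested genes 5.04% were lower and 3.91% higher in Ocln-KO at an FDR under 0.05, the background for this list and each list below. Of these 53 genes 5 were lower and 2 higher by that rule, with 38 fitted below 0 and a median log2 fold change of -0.18. None of them passed in edgeR fits without WT replicate 1 (12 lower and 4 higher at an unadjusted p under 0.05) or without WT replicate 3 (13 lower and 4 higher), and without WT replicate 2 only 2 did, both lower. The share of all genes at that unadjusted threshold was not counted.

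Among 15 other glycolytic enzyme genes 10 were fitted below 0, 5 of them at an unadjusted p under 0.05, and by edgeR none of these passed while 1 gene rose. DESeq2 called Pklr and Tpi1 lower, at FDRs of 0.0162 and 0.0235. The gene that rose was Pfkp, which encodes the platelet-type phosphofructokinase subunit. It had 15.8, 15.6 and 14.4 CPM in the WT libraries against 28.3, 31.1 and 23.7 CPM in Ocln-KO, with no overlap. The log2 fold change of 0.86 (SE 0.13, edgeR FDR 0.0160) was opposite in sign to that of its paralog Pfkl, while the muscle-type Pfkm was at 21.2 to 24.8 CPM in WT and 19.2 to 24.5 CPM in Ocln-KO (edgeR FDR 0.718). A difference between the paralogs was not tested. Pklr, the pyruvate kinase gene of liver and red cells, and Tpi1, the triose phosphate isomerase gene, were named after their values were seen, and the log2 fold change of Tpi1 was -0.42 (edgeR FDR 0.0663). Hk3, the hexokinase gene of white blood cells, stayed under 2 CPM in each library (edgeR FDR 0.459).

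**Figure D3:**
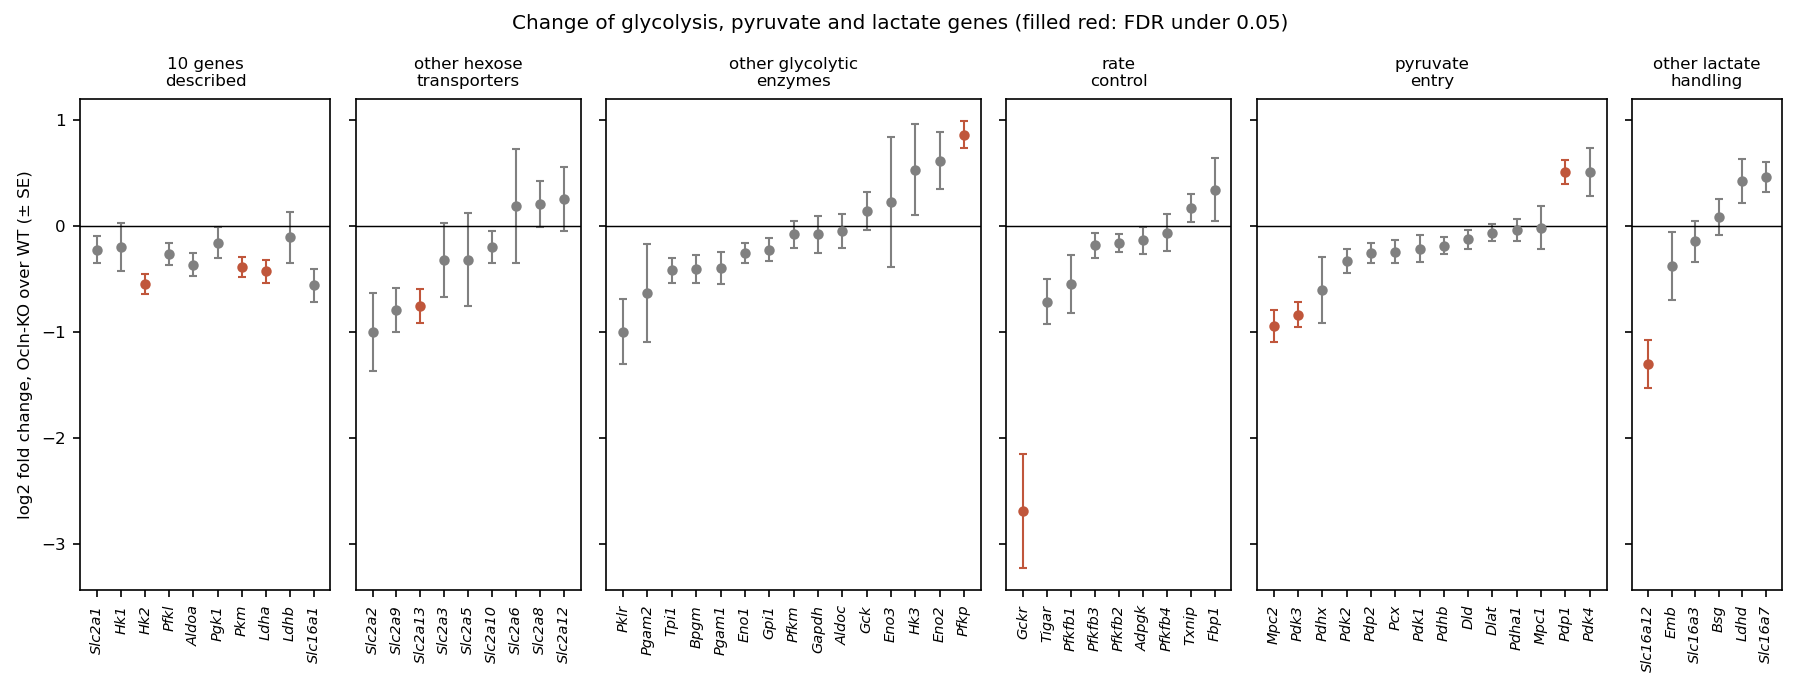
Log2 fold change of Ocln-KO over WT (± SE) for the 10 genes and for the 53 tested genes around them, grouped by step, with genes at an edgeR FDR under 0.05 in red. The members lie between -0.56 and -0.11, and Pfkp and Pdp1 are the 2 called genes above 0.

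Among genes of pyruvate entry, 2 of 14 were lower and 1 was higher. Mpc2, a subunit of the mitochondrial pyruvate carrier, had 68.8, 59.7 and 84.7 CPM in the WT libraries against 41.6, 36.6 and 32.5 CPM in Ocln-KO (log2 fold change -0.94, SE 0.15, edgeR FDR 0.0193). Its partner subunit Mpc1, named after its values were seen, had a log2 fold change of -0.019 (edgeR FDR 0.962). Pdk3, a kinase that switches pyruvate dehydrogenase off, had 57.9, 51.9 and 53.5 CPM in the WT libraries against 33.7, 31.6 and 25.8 CPM in Ocln-KO (log2 fold change -0.84, SE 0.12, edgeR FDR 0.0137).

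Pdp1, a phosphatase that switches the same enzyme on, was higher, with 18.7, 16.1 and 18.5 CPM in the WT libraries against 26.3, 23.0 and 26.6 CPM in Ocln-KO. The log2 fold change of Pdp1 was 0.51 (SE 0.11, edgeR FDR 0.0380). For these 3 genes no WT library overlapped an Ocln-KO library.

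Of the 6 tested genes of lactate and monocarboxylate handling beside the members, 1 was lower by edgeR. Slc16a7, named after its values were seen, had a log2 fold change of 0.46 (edgeR FDR 0.0786), and DESeq2 called it higher at an FDR of 0.0379. Slc16a12, a member of the Slc16 family described as a creatine transporter, had 86.4, 84.9 and 98.6 CPM in the WT libraries against 45.4, 40.8 and 23.2 CPM in Ocln-KO (log2 fold change -1.30, SE 0.23, edgeR FDR 0.0227). It and Gckr were the only 2 of the 7 called pathway genes past a 2-fold change. Slc16a3, which encodes the lactate exporter MCT4, was low in both genotypes, at 11.7, 8.02 and 10.1 CPM in the WT libraries against 8.44, 8.03 and 10.5 CPM in Ocln-KO (edgeR FDR 0.665).

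The count ratio of Slc16a3 to Slc16a1 ranged from 0.0823 to 0.122 in WT and was 0.108, 0.113 and 0.212 in Ocln-KO. These ranges overlapped (exact two-sided permutation test, p = 0.4, adjusted p = 0.6 over 3 ratios). Bsg, which encodes the chaperone basigin that brings MCT1 and MCT4 to the membrane, had 144, 116 and 131 CPM in the WT libraries against 104, 145 and 166 CPM in Ocln-KO (log2 fold change 0.084, edgeR FDR 0.788).

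Among 9 tested hexose transporters beside Slc2a1, Slc2a13, which encodes a proton-coupled myo-inositol transporter, was lower. It had 12.6, 11.7 and 11.6 CPM in the WT libraries against 8.25, 6.37 and 6.56 CPM in Ocln-KO (log2 fold change -0.76, SE 0.16, edgeR FDR 0.0331). Slc2a9, named after its values were seen, had a log2 fold change of -0.80 (edgeR FDR 0.0535), and DESeq2 called it lower at an FDR of 0.0106. Of 9 tested genes of rate control 1 was lower, Gckr, the glucokinase regulatory protein gene, which had 27, 21 and 19 counts in WT and 2, 4 and 3 counts in Ocln-KO (edgeR FDR 0.0291). At such counts the size of its fall is uncertain. Tigar, also of rate control and named after its values were seen, had a log2 fold change of -0.72 (edgeR FDR 0.0732). DESeq2 called Tigar lower at an FDR of 0.0222.

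Slc2a3, the gene of the high-affinity transporter GLUT3, and Emb, the gene of embigin, a chaperone of monocarboxylate transporters, were chosen with their values in view. Slc2a3 had 114, 94.3 and 133 CPM in the WT libraries against 105, 126 and 42.2 CPM in Ocln-KO (edgeR FDR 0.588). Emb had 181, 164 and 171 CPM in the WT libraries against 172, 162 and 63.5 CPM in Ocln-KO (edgeR FDR 0.477). As with Hk1, the low value was that of Ocln-KO replicate 3.

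Germ line isoforms of the pathway were tested as a separate list of 8 genes, of which none passed by edgeR, none had an unadjusted p under 0.05 and DESeq2 called none. The testis-specific lactate dehydrogenase gene Ldhc had 17.6, 8.32 and 18.9 CPM in the WT libraries against 21.4, 22.8 and 3.61 CPM in Ocln-KO. Pgk2, the retrogene of Pgk1 used by spermatids, had 35.8, 24.8 and 20.9 CPM in the WT libraries against 27.0, 28.9 and 6.27 CPM in Ocln-KO. Gapdhs, the sperm form of Gapdh, had 25.9, 14.3 and 19.8 CPM in the WT libraries against 16.9, 29.3 and 5.03 CPM in Ocln-KO.

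In each of these 3 genes Ocln-KO replicate 3 was the lowest of the 6 libraries, as it was for the sum of the spermatid and sperm markers. The log2 fold changes of Ldhal6b, Aldoart1 and Aldoart2, the other isoforms with a mean of at least 1 CPM, were 0.35, -0.67 and -0.17 (edgeR FDRs of 0.449 to 0.890).

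On side branches of the pathway 3 of 15 tested genes were lower, in the hypoxia response 1 of 13, and none was higher by edgeR. In each list 1 gene had an unadjusted p under 0.05 in the higher direction. Over all tested genes 5.04% were called lower and 3.91% higher. Tkt, the transketolase gene of the pentose phosphate pathway, averaged 195 ± 26.7 CPM over the WT libraries and 132 ± 13.0 CPM over those of Ocln-KO (SD, n = 3), and its log2 fold change was -0.57 (edgeR FDR 0.0352). Pgls, which encodes the lactonase of the same pathway, had a log2 fold change of -0.45 (edgeR FDR 0.0354), and Gbe1, the glycogen branching enzyme gene, of -1.03 (edgeR FDR 0.0213). Egln3, an oxygen-sensing prolyl hydroxylase gene that hypoxia induces, had a log2 fold change of -0.60 (edgeR FDR 0.0460). Hif1a, the gene of the oxygen-regulated factor, named after its values were seen, had 0.019 (edgeR FDR 0.919). Vegfa and Car9 of the hypoxia list, also named with their values seen, were higher in Ocln-KO without overlap. Vegfa had a log2 fold change of 0.42 (edgeR FDR 0.0950). Car9, too low to be tested, had 3, 5 and 4 counts in WT against 16, 8 and 14 in Ocln-KO. Of the 13 tested hypoxia genes 8 were fitted below 0 and 5 above. Without WT replicate 1, WT replicate 3 or Ocln-KO replicate 2 no gene of these lists passed, and without WT replicate 2 only Gbe1 did. Without Ocln-KO replicate 3 there were 2, and of Tkt, Pgls, Gbe1 and Egln3 only Gbe1 was among them.

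Marker lists of other cell types moved with the genotype in part. Of 7 tested clear cell markers 4 were lower, and the list's summed level was 135 to 162 CPM in WT and 91.2 to 121 CPM in Ocln-KO. Car12 held 30.7, 36.4 and 56.6 CPM of the sums in Ocln-KO replicates 1 to 3. It was the only 1 fitted above 0 (log2 fold change 0.21, edgeR FDR 0.546), against 6 below. Of 8 tested principal cell and epithelial markers 1 was lower, with sums from 19472 to 23419 CPM in WT and from 11989 to 16599 CPM in Ocln-KO. Crisp1 and Lcn5 made up most of each of these sums. Their log2 fold changes were -0.92 (edgeR FDR 0.0855) and 0.037 (edgeR FDR 0.956), so the sums do not describe the list as a whole. Of the 8 markers, 6 were fitted below 0 and 2 above, with a median of -0.16. Of 7 smooth muscle markers 2 were higher, with sums from 1204 to 1450 and from 1640 to 2218 CPM. Of 7 tested basal cell markers 1 was higher, with sums of 235 to 248 and 243 to 287 CPM. Of 4 tested lymphocyte markers 1 was higher, with sums of 3.71 to 4.10 and 10.2 to 15.5 CPM.

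None of the 10 macrophage, 6 adipocyte, 6 endothelial, 6 fibroblast, 8 spermatid or 2 neutrophil markers that were tested passed by edgeR. At an unadjusted p under 0.05 there were 7 macrophage markers higher and 1 lower, 3 adipocyte markers lower, 1 endothelial marker in each direction, 2 fibroblast markers higher, and 0 for the spermatid and neutrophil lists. These counts too have no share of all genes beside them. Of 5 tested blood markers 1 was lower, with sums of 22.0 to 49.6 CPM in WT and 6.06 to 13.2 CPM in Ocln-KO, and of 5 tested skeletal muscle markers 1 was higher and 1 lower, at sums under 9 CPM. In no list was a marker without any count over the 6 libraries. The part of these cell types in the lower levels of Hk2, Pkm and Ldha was not tested.

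**Figure D4:**
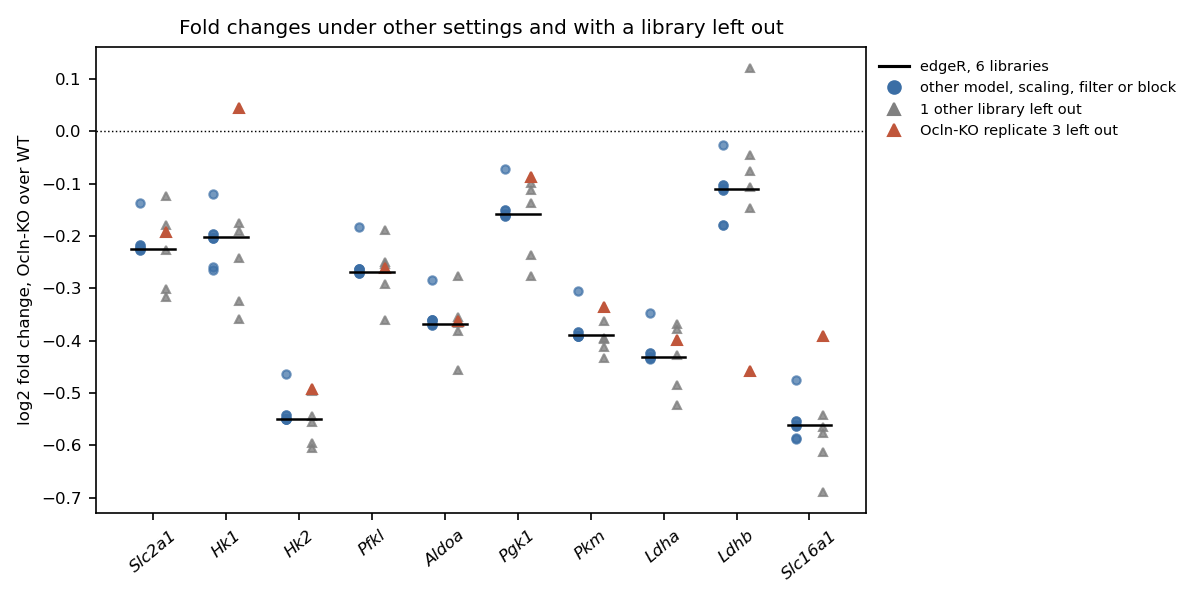
Log2 fold change of the 10 genes with edgeR on all 6 libraries (black line), under another model, scaling, filter or the replicate block (blue circles) and with 1 library left out (triangles, red for Ocln-KO replicate 3). The sign is kept throughout except for Hk1 without Ocln-KO replicate 3 (0.045) and Ldhb without Ocln-KO replicate 1 (0.12).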

How the data were processed

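Total RNA of whole epididymides was cleared of rRNA before directional library construction, and all libraries shared 1 sequencing lane. Per the paper's methods and the submitters' processing notes, the authors cleaned the reads, aligned them to GRCm38 with HISAT2 2.0.4 and counted them per gene with HTSeq. They deposited raw counts per gene and library, without normalization. The annotation, the strand setting and the handling of reads that align to several places are not given in the sources used here, and dropped or divided reads lower the count of genes with close copies. RNA came from 3 pairs of mice, but the methods also speak of pooled samples, so n counts libraries. The p-values set the difference between genotypes against the spread between libraries, moderated over genes. If samples were pooled, the spread between animals is not seen. With 3 libraries of each genotype, the spread is estimated from few values.

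Genes were kept by filterByExpr (19691 of 32046 with a count), scaled by TMM and fitted over all 6 libraries with edgeR 4.0.16 in R 4.3.3 (glmQLFit, glmQLFTest), and p-values were adjusted by Benjamini and Hochberg over every gene tested. The SE is the log2 fold change over the square root of F, and 95% intervals use the moderated degrees of freedom. Ratios of 2 genes used a prior count of 0.5 for the log2 test. DESeq2 1.42.0 (the tool of the study's methods), limma 3.58.1 (voom), other scalings and filters, a replicate block and each library left out were alternatives, and fits were tested on simulated data. Lengths come from GENCODE M21, as no RefSeq exons were used. Copies were found with blastn among GENCODE pseudogenes. Of the listed symbols, 2 occur on more than 1 line and 27 had turned into dates (0.145% of counts), none a gene of the lists.

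The members and gene lists were chosen with earlier results of these data known. Besides the members and Ocln, named genes were those of the other pathway lists with an FDR under 0.05 (at most 12), the isozyme partners Hk3, Pfkm, Pfkp, Gapdh, Slc16a3 and Bsg, germ line isoforms with a mean of at least 1 CPM, and up to 6 genes of the hypoxia and side pathway lists with an FDR under 0.05. Tpi1, Pklr, Mpc1, Hif1a, Vegfa, Car9, Pygl, Slc2a3, Slc2a9, Tigar, Emb, Slc16a7, Crisp1, Lcn5, Lcn8, Lcn9, Cst8, Rnase10, Car12 and the cell type sums fall outside this rule and were chosen with their values seen.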

Additional observations from a re-analysis of the deposited data

How the results depend on the processing

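Of 140 values of the 10 members under 14 alternatives, 138 kept their direction, the exceptions being Ldhb without Ocln-KO replicate 1 (0.12, within a range of -0.46 to 0.12 with a library left out) and Hk1 without Ocln-KO replicate 3 (0.045, within a range of -0.36 to 0.045). The number of members called lower, 3 with edgeR, was 5 with DESeq2, 1 with total counts only, 0 with a fold change under 0.5 added and 0 under the replicate block, and it ran from 0 to 2 with a library left out. No member was called higher under any alternative. Total counts moved the median of all genes from 0.0081 to 0.094 on the log2 scale, and that of the members from -0.32 to -0.23. Of the other pathway genes, 9 were called lower with DESeq2 and 0 under the block, against 5, and with a library left out the number ran from 0 to 7. Those called higher, 2 in all, became 3 with DESeq2, 3 with total counts only and 0 under the block, and ran from 0 to 2 with a library left out. Of the hypoxia and side pathway genes, 4 in all, DESeq2 called 7, total counts 2 and the block 0, and with a library left out 0 to 3. The causes were not tested. Each fit with a library left out had 1 library fewer. Over all genes these fits called 19, 145 and 40 lower without WT replicates 1, 2 and 3. Without Ocln-KO replicates 1, 2 and 3 they called 875, 342 and 944 lower. Over all genes DESeq2 called 1708 lower and 1604 higher against 992 and 770, and the block 31 and 10. With total counts 674 were lower and 1175 higher. Same-numbered libraries did not deviate together (correlations of -0.060, -0.018 and -0.036), so the numbers were not taken to pair the libraries, and no library correlated best with its own number. The mean log2 ratio of Ldhb to Ldha reversed without Ocln-KO replicate 3, from 0.25 to -0.072, within a range of -0.072 to 0.46. With the longest transcript in place of the exon union, the level per kilobase of 8 members moved by more than the SD between WT libraries.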
